A study of Homo sapiens with 11 samples.

Results

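The metallothioneins followed here are 6 genes, MT2A, MT1E, MT1X, MT1F, MT1G and MT1M, taken by gene symbol from the 60605 features of the deposited expression table. Metallothioneins are very small, cysteine-rich proteins that bind zinc and copper, hand these metals to other proteins and bind toxic metals such as cadmium. Their genes are switched on when free zinc rises and the zinc-sensing transcription factor MTF1 binds metal response elements in their promoters, and glucocorticoids and oxidative stress also raise them. In retinal pigment epithelium, a pigmented cell layer rich in zinc, they are known as part of the defence against oxidative and metal stress.

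The RNA came from ARPE-19, an established human cell line of retinal pigment epithelium. Polyadenylated RNA was sequenced from lines that had expressed an introduced open reading frame for 4 days: GFP, a fluorescent protein that served as the control (3 libraries), or the transcription factors Oct4, Sox2 or Klf4 alone, or all 3 factors in the same cells, called OSK (2 libraries each). The labels give neither the promoter that drove the reading frames nor the species of the factors, and do not say whether replicates were separate cultures, so p-values measure only the spread between these libraries. The library names of the factor lines carry the tag mC, and those of GFP do not. What mC marks is not taken from the names, so in comparisons with GFP it cannot be told apart from the factors. Each library held 15053300 to 19791775 reads, of which 1056 to 2371 fell on the 6 metallothioneins.

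The libraries carried the factor genes their labels name: POU5F1 (Oct4) read 66820 and 67330 in the Oct4 line against 251.9 to 276.1 in GFP, and SOX2 and KLF4 were likewise highest in the lines labelled for them. Levels in OSK were not all those of the single lines. POU5F1 read 19020 and 19540 in OSK. SOX2 read 17760 and 17580 in OSK against 29110 and 29140 in Sox2. KLF4 read 24470 and 24200 in OSK against 24200 and 22140 in Klf4. Of 14 markers of retinal pigment epithelium, 9 had a normalised count of at least 10 in every library, among them MITF and OTX2, whereas RPE65, DCT and TTR stayed under 10 in every library. The 14 markers summed to 37780 to 42050 normalised counts in GFP, 24500 to 25280 in Oct4, 26410 to 27650 in Sox2, 31990 to 36020 in Klf4 and 23960 to 24270 in OSK. The pigment gene PMEL had a mean of 5147 in GFP and 140 to 1270 in the factor lines. MITF, TYR, TYRP1, SERPINF1, BEST1, KRT8 and KRT18 also had their highest mean in GFP. CST3 went the other way, with a mean of 4683 in GFP and 5285 to 8152 in the factor lines. OTX2 had 1881 in GFP, 1494 in Oct4, 1208 in Sox2, 2320 in Klf4 and 1970 in OSK. RLBP1, a low gene here, was also highest in Klf4, with 29.95 against 20.12 in GFP. It had 11.49 in Oct4, 8.345 in Sox2 and 3.275 in OSK. The keratins KRT8 and KRT18 weigh heavily in the sums, with means of 15930 and 5307 in GFP. Of 5 fibroblast markers, 2 (COL1A1 and COL1A2) reached 10 in every library, DCN stayed under 10 in every library, and the 5 summed to 2940 to 4867 in GFP, 2547 to 3676 in Oct4, 7053 to 8407 in Sox2, 976 to 1372 in Klf4 and 583 to 823 in OSK. COL1A1 made up most of these sums, with means of 3856 in GFP and 7699 in Sox2. From GFP to Sox2, LUM rose from 1.987 to 10.03. COL1A2 (19.85 to 15.96), PDGFRA (10.24 to 5.075) and DCN (1.987 to 0) fell. These marker levels moved with the groups, and their part in the metallothionein differences was not tested. The leukocyte markers PTPRC, CD14 and CD68 summed to at most 15.09 in any library. Of 5 pluripotency markers, 4 (LIN28A, DPPA4, TDGF1 and DNMT3B) reached 10 in every library. The 5 summed to 716 to 987 in GFP, 644 to 706 in Oct4 and 365 to 468 in Sox2. In Klf4 they summed to 670.7 to 675.5 and in OSK to 478 to 630. The endothelial markers PECAM1, CDH5 and VWF summed to 1.94 to 124.1 in GFP and 6.96 to 60.7 in the factor lines. GFP replicate 1 stood apart: it had reads on 42956 features and on 67.7% of 405 olfactory receptor genes, OSK replicate 1 on 32493 features and 23.0%, and the other 9 libraries on 25853 to 26971 features and 4.94% to 8.15%. Without GFP replicate 1 the number of called members was 0 in Oct4, 3 in Sox2, 3 in Klf4 and 2 in OSK. The counts for Klf4 and OSK include MT1M, which was tested because it was high in Klf4. The share of all genes called is not given for this fit, so these counts are no result about the family. Calls of members against GFP that change without GFP replicate 1 or OSK replicate 1 are given with and without these libraries.

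The 6 genes stood in a cluster of 76.0 kb on the long arm of chromosome 16, chr16:56608199-56684196 in GENCODE 29 on GRCh38, a build that the submitters' processing notes name without saying for which files. MT2A (ENSG00000125148, chr16:56608199-56609497) opened the cluster, followed by MT1E (chr16:56625475-56627112), MT1M (chr16:56632233-56633986), MT1F (chr16:56657694-56660698), MT1G (chr16:56666731-56668065) and MT1X (chr16:56682424-56684196). MT1G alone was on the minus strand. Every member was protein coding, with 186 coding bases spread over 3 exons. The coding sequences are shown because the members' likeness bears on every value that follows. They run 5′ to 3′ from start to stop codon, with capitals at the bases of each gene that differ from MT2A.
MT2A: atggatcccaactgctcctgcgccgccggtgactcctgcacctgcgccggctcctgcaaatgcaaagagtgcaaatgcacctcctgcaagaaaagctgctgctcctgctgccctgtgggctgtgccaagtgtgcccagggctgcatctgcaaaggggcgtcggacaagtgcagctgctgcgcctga
MT1E: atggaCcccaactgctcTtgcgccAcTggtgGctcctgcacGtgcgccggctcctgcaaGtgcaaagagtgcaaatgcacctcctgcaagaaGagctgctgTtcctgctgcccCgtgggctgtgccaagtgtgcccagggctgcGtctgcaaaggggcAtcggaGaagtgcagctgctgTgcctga
MT1X: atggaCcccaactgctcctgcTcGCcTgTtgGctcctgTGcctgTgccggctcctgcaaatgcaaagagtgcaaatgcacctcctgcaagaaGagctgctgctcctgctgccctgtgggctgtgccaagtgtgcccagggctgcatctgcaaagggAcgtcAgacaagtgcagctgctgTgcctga
MT1F: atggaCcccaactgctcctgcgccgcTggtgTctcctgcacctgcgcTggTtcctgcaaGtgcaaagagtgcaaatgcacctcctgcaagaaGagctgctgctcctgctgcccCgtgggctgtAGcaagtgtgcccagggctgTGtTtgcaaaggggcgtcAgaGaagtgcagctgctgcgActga
MT1G: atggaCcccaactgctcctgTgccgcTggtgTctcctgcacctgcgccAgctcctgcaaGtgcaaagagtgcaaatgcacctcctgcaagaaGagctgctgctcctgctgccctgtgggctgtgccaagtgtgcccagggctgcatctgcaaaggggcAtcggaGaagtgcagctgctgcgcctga
MT1M: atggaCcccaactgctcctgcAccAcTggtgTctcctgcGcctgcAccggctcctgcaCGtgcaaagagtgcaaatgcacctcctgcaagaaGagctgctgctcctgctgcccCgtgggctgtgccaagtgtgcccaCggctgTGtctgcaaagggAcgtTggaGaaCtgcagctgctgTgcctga
Between MT2A and the others, 9 (MT1G) to 19 (MT1M) of the 186 positions differed, with no gap. Over the 15 pairs of members the identity was 88.7% to 95.2%. Over whole transcripts the members shared less: of all 50-base stretches of a member's principal transcript, 4.89% of MT2A, 5.34% of MT1E, 7.05% of MT1M and 3.59% of MT1F also occurred in another gene's transcripts. For MT1G the share was 20.2% and for MT1X 45.1%. The gene that shared most with MT1X was AC026461.1 (ENSG00000259827), a transcript that overlaps MT1X on the same strand and was listed at 0 in all 11 libraries. How the counting treated reads that fit several genes is not given in the sources used here, so values of MT1G and MT1X are the least certain.

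RefSeq's promoter table (GRCh38.p14) held 2 of the 6 members, MT2A and MT1X. The metal response element core was searched as TGCACNC or TGCGCNC on both strands in the 250 bases before each RefSeq start. MT2A (chr16:56608334-56608583) held 7 matches, a number that 0.0313% of 35116 promoters reached. All 250 bases of that window also lie inside the 5′ untranslated region of GENCODE's principal MT2A transcript, which starts farther upstream than RefSeq's. They read TGCACCC at -246, GTGTGCA at -168 and -88, TGCGCCC at -153, TGCGCGC at -139, and TGCACTC at -54 and -8, where GTGTGCA is the minus-strand form. MT1X (chr16:56682220-56682469) held 4 matches, a number that 0.370% of promoters reached, and 24.8% of promoters held at least 1. The MT1X sequence is shown up to the base before the first GENCODE transcript, chr16:56682220-56682423 on the plus strand, as the stretch that holds all 4 matches, in capitals.
MT1X promoter: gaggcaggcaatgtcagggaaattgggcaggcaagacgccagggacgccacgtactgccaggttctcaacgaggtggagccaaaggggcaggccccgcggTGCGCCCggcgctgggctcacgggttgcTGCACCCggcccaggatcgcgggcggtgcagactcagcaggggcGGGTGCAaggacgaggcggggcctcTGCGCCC
The Oct4 octamer ATGCAAAT, present in 1.63% of promoters, and the SOX site ATTGTN, present in 24.6%, had no match in either window. The CACCC box bound by Krüppel-like factors, which 54.7% of promoters hold, occurred 3 times at MT2A and 2 times at MT1X, some of these within the metal response elements. These matches describe letters in a window, and binding was not measured.

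Across all 11 libraries MT2A was the main metallothionein transcript. It took 66.7% to 81.6% of the reads on the 6 members (median 78.1%), MT1E took 11.1% to 20.1% and MT1X 3.42% to 10.3%. MT1F supplied 0.851% to 2.75%, MT1G 0.284% to 1.33% and MT1M at most 0.844%. Levels of different genes were compared per kilobase of principal transcript: in GFP the mean normalised count per kilobase was 2047 ± 330 (SD, n = 3) for MT2A, 357 ± 61.4 for MT1E, 204 ± 56.9 for MT1X, 66.2 ± 2.40 for MT1F, 29.5 ± 11.7 for MT1G and 6.41 ± 8.14 for MT1M. The order from MT2A down to MT1G was therefore the same per length as by reads.

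The summed normalised count of the 6 members, a read count divided by a library size factor, was 2015 ± 317 in GFP (SD, n = 3) and 2223 ± 487 in Oct4 (SD, n = 2). It was 2580 ± 230 in Klf4, 1252 ± 381 in Sox2 and 1155 ± 14.2 in OSK (SD, n = 2 each). The Sox2 and OSK libraries were all below the lowest GFP library. The Klf4 libraries (2742 and 2418) were both above the highest GFP library (2380), replicate 2 by a small margin. The sum was not tested, and groups that do not overlap were common among single genes. Of all genes tested, 60.0% did not overlap GFP in Sox2, 54.0% in Klf4 and 58.5% in OSK. In these bulk samples fewer cells of a type and less RNA per cell cannot be told apart.

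**Figure D1:**
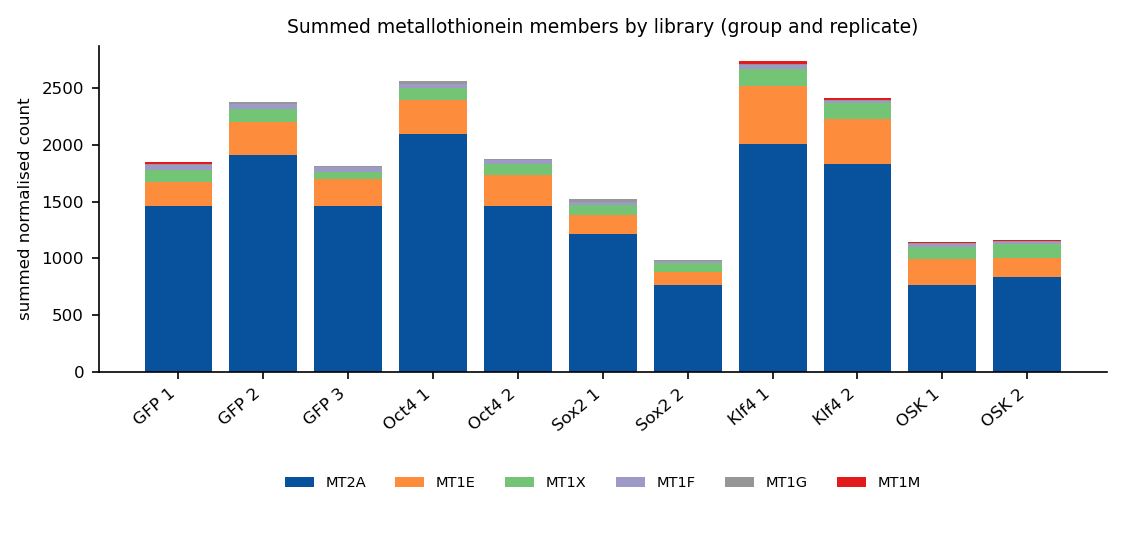
Summed normalised count (y axis) of the 6 metallothioneins in each of the 11 libraries (x axis, group and replicate), stacked by gene. The OSK and Sox2 bars lie between 983 and 1521 and the Klf4 bars at 2418 and 2742, and MT2A fills most of every bar.

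The design sets each factor against GFP, OSK against each factor and the factors against each other, which makes 10 comparisons, and the 4 comparisons with GFP share the same 3 control libraries. Differences are given as log2 change with its standard error (SE) on the log2(normalised count + 1) scale, which understates changes of low genes, and were tested with limma across all 18828 genes that reached a normalised count of 10 in at least 2 libraries. A change was called at a Benjamini-Hochberg adjusted p under 0.05. All 6 members were tested. MT1M passed the filter through its Klf4 libraries, so its differences from Klf4 were selected in part by the filter and its adjusted p-values are given as a description.

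The libraries differed widely over the whole transcriptome. Against GFP, 37.3% of all genes tested were called in Oct4, 41.6% in Sox2, 33.5% in Klf4 and 39.7% in OSK. Of the 6 members, 0 were called in Oct4, 3 in Sox2 (all lower), 3 in Klf4 (all higher, MT1M among them, and 2 with no filter) and 1 in OSK (lower). Genes called lower made up 19.9% of all genes in Sox2 and 20.0% in OSK, and those called higher 17.6% in Klf4. A share of 3 in 6 is near the share of all genes called in either direction, so the number of called members is no result about the family. The median log2 change of the members was 0.16 in Oct4, -0.79 in Sox2, 0.50 in Klf4 and -0.34 in OSK. The median over all genes tested was between -0.02 and -0.01. The Klf4 median includes MT1M (2.54), which passed the filter through its Klf4 libraries. The other members changed in Klf4 by 0.84 (MT1E), 0.73 (MT1X), 0.27 (MT2A), -0.13 (MT1G) and -0.77 (MT1F).

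**Figure D2:**
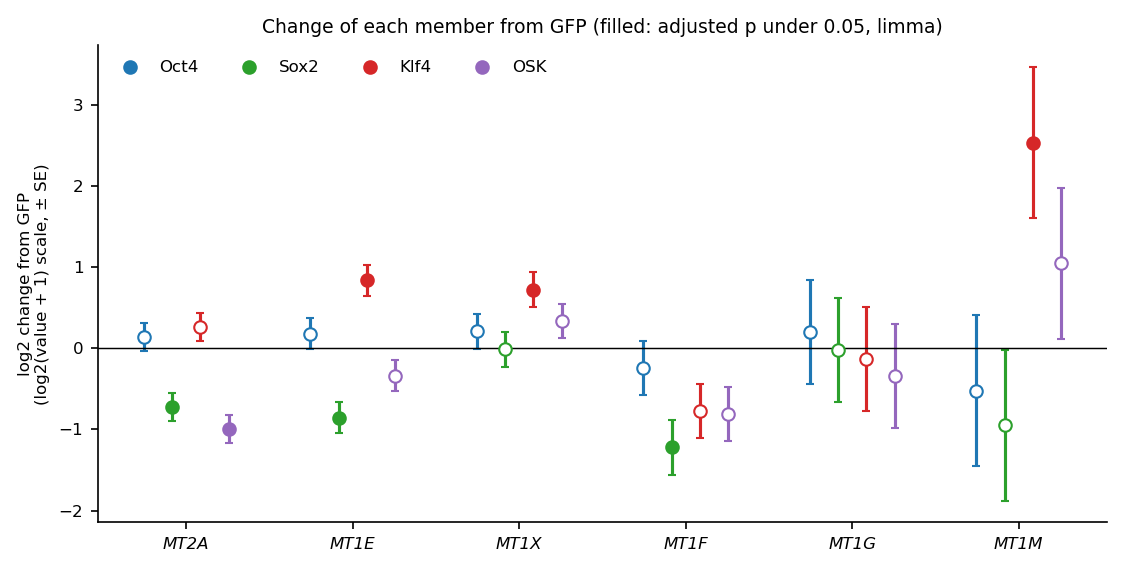
Log2 change from GFP of each metallothionein (x axis) in the 4 factor lines (colours), with bars for ± 1 SE of the limma fit; filled points had an adjusted p under 0.05. MT2A is filled below 0 in Sox2 and OSK, and MT1E is filled below 0 in Sox2 and above 0 in Klf4.

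MT2A, the most widely expressed human metallothionein, fell in Sox2 and in OSK. Its normalised counts were 1461, 1908 and 1458 in GFP, 2095 and 1466 in Oct4, 1217 and 762.9 in Sox2, 2011 and 1834 in Klf4, and 763.2 and 837.0 in OSK. Every Sox2 and OSK library lay below every GFP library, while Oct4 and Klf4 overlapped GFP. The level in OSK was 0.497 of that in GFP, a log2 change of -0.997 (SE 0.17, limma adjusted p = 2.22e-04), and this call was kept under all 14 alternative settings, GFP replicate 1 and OSK replicate 1 left out included. In Sox2 the change was -0.73 (SE 0.17, limma adjusted p = 0.00288). It rested in part on Sox2 replicate 2, without which it was -0.39 (adjusted p = 0.112).

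Ordered by mean, MT2A ran from OSK (800 ± 52.2) over Sox2 (990 ± 321), GFP (1609 ± 259, n = 3) and Oct4 (1780 ± 445) to Klf4 (1923 ± 126; SD, n = 2 for each line). The step between Sox2 and GFP was the only step between neighbours that passed the test. OSK and Sox2 did not differ beyond the spread (log2 change -0.27, 95% interval -0.67 to 0.13, limma adjusted p = 0.284). OSK was lower than the Oct4 line by a log2 change of -1.13 (SE 0.19, adjusted p = 1.57e-04) and lower than the Klf4 line by -1.26 (SE 0.19, adjusted p = 1.29e-04). Sox2 in turn was lower than Klf4 by -0.99 (adjusted p = 4.86e-04), and Oct4 was higher than Sox2 by 0.86 (adjusted p = 0.00208). Without Sox2 replicate 2 that difference between Oct4 and Sox2 was 0.53 (adjusted p = 0.0538), and without Oct4 replicate 1 it was 0.60 (adjusted p = 0.0527).

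MT1E, the second most abundant member and an inducible MT1 isoform, moved in opposite directions in Sox2 and Klf4. It read 211.5, 297.4 and 245.9 in GFP, 300.8 and 265.5 in Oct4, 168.3 and 112.2 in Sox2, 506.6 and 394.2 in Klf4, and 229.8 and 169.4 in OSK. Both Klf4 libraries were above all others and both Sox2 libraries below all others, OSK replicate 2 lying close above Sox2 replicate 1. In Klf4 the level was 1.79 times that of GFP (log2 change 0.84, SE 0.19, limma adjusted p = 0.00257); without Klf4 replicate 1 the change was 0.66 (adjusted p = 0.0602). In Sox2 it fell to 0.557 of GFP (log2 change -0.85, SE 0.19, adjusted p = 0.00165); without Sox2 replicate 2 the change was -0.56 (adjusted p = 0.0583).

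Between the factor lines, MT1E gave the largest called difference of the 5 members other than MT1M: the Sox2 line was lower than the Klf4 line by a log2 change of -1.69 (SE 0.21, limma adjusted p = 5.87e-06), and the call was kept in all 13 alternatives. OSK was lower than Klf4 by -1.18 (SE 0.21, adjusted p = 5.70e-04), also kept in all 13. The OSK line, which carries Klf4 as well, was thus below the line with Klf4 alone. Against GFP, OSK did not pass the test for MT1E (-0.34, 95% interval -0.74 to 0.07, adjusted p = 0.180), and against Sox2 it was 0.52 higher without passing (adjusted p = 0.0571). Against Oct4 the MT1E change in OSK was -0.52, also without passing (limma adjusted p = 0.0585). Oct4 was above Sox2 by 1.03 (adjusted p = 9.82e-04) and below Klf4 by -0.66 (adjusted p = 0.0174). The difference between Oct4 and Klf4 missed the threshold without Klf4 replicate 1 (-0.48, adjusted p = 0.171), without Oct4 replicate 2 (-0.57, adjusted p = 0.117) and with no filter on low genes (adjusted p = 0.0568).

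**Figure D3:**
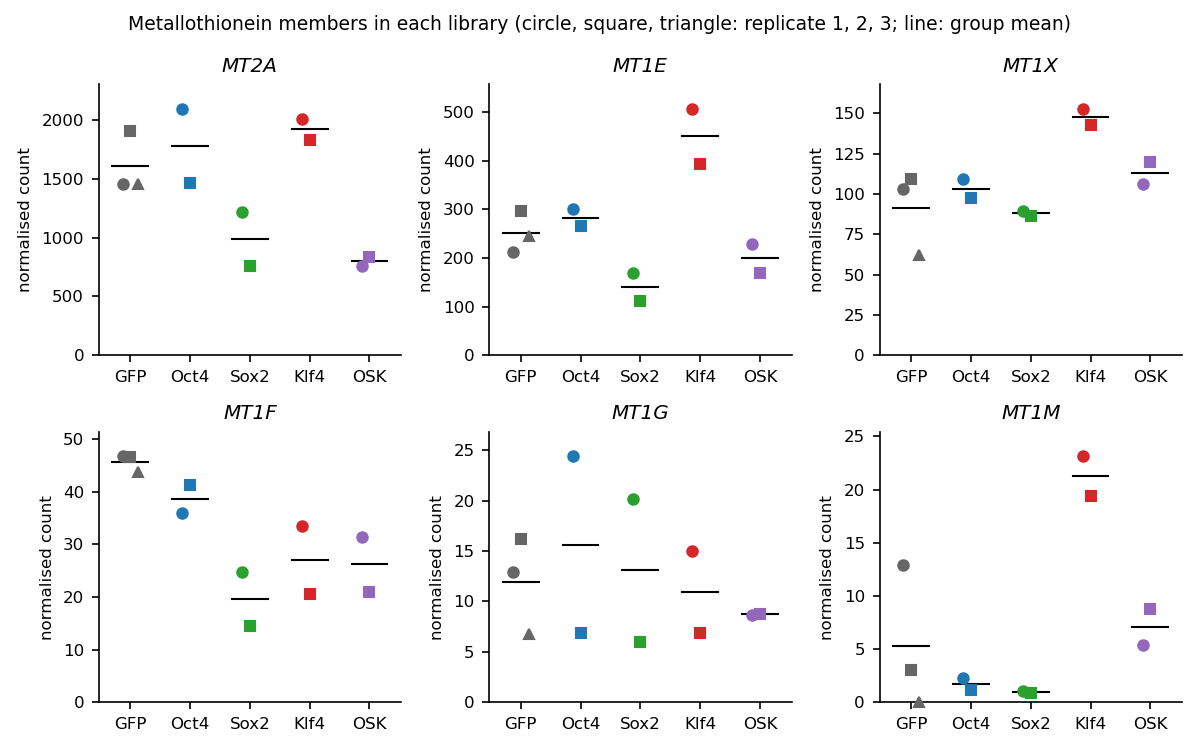
Normalised count (y axis, from 0) of each metallothionein in every library, by group (x axis); circle, square and triangle are replicates 1, 2 and 3 and lines are group means. MT2A sits lowest in Sox2 and OSK, MT1E, MT1X and MT1M sit highest in Klf4, MT1F sits highest in GFP, and MT1G spreads widely within groups.

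MT1X, another inducible MT1 isoform, rose in Klf4 against GFP and was not called in the other lines. Its values were 103.3, 109.3 and 62.21 in GFP, 109.2 and 97.29 in Oct4, 89.76 and 86.48 in Sox2, 152.7 and 142.8 in Klf4, and 106.2 and 119.9 in OSK. The Klf4 libraries were the 2 highest, and GFP replicate 3 was the lowest of all 11. The log2 change in Klf4 was 0.73 (SE 0.21, limma adjusted p = 0.0151), and it was 0.47 (adjusted p = 0.0545) without GFP replicate 3. Leaving out Klf4 replicate 1 (0.68, adjusted p = 0.1004) or Klf4 replicate 2 (0.77, adjusted p = 0.0573) also ended the call.

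In Sox2, where MT2A and MT1E fell, the MT1X change was -0.01 (95% interval -0.47 to 0.44, limma adjusted p = 0.969). As a description, MT1X took a larger share of metallothionein reads in Sox2 (7.35% ± 2.05, SD, n = 2) and in OSK (9.79% ± 0.716) than in GFP (4.53% ± 1.08, n = 3), with both Sox2 and both OSK libraries above the highest GFP library. The Sox2 line was lower than Klf4 in MT1X by -0.74 (adjusted p = 0.0184). That call was lost when any of the 4 libraries compared was left out (adjusted p 0.0544 to 0.0938). Oct4 was 0.51 below Klf4 without passing (95% interval -1.01 to -0.02, adjusted p = 0.0914).

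MT1F, an MT1 isoform of modest level here, was highest in GFP. It read 46.67, 46.54 and 43.74 in GFP, 36.00 and 41.20 in Oct4, 24.68 and 14.56 in Sox2, 33.54 and 20.57 in Klf4, and 31.44 and 20.90 in OSK. All 8 factor libraries were below all 3 GFP libraries, and of the 4 lines Sox2 passed the test, at 0.430 of GFP (log2 change -1.22, SE 0.33, limma adjusted p = 0.00760). Without Sox2 replicate 2 that change was -0.86 (adjusted p = 0.118). In OSK the change was -0.81 (95% interval -1.52 to -0.10, adjusted p = 0.0677) and in Klf4 -0.77 (95% interval -1.48 to -0.06, adjusted p = 0.0898). Groups that did not overlap were common: 56.4% of all genes tested in Oct4, 60.0% in Sox2, 54.0% in Klf4 and 58.5% in OSK. These shares count each line alone and either direction, and the share for all 4 lines lower at once is not given. Oct4 was above Sox2 by 0.98 at an adjusted p of 0.0499, which was kept in 2 of 12 alternatives.

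MT1G, an MT1 isoform with few reads here, passed the test in 0 of 10 comparisons (limma adjusted p from 0.589 to 0.988). It read 12.91, 16.19 and 6.80 in GFP, 24.38 and 6.87 in Oct4, 20.20 and 5.99 in Sox2, 15.04 and 6.86 in Klf4, and 8.67 and 8.80 in OSK. In Oct4, Sox2 and Klf4 the replicates lay farther apart than any pair of group means. The 95% intervals against GFP ran from as low as -1.71 in OSK to as high as 1.57 in Oct4, so changes within those bounds were not detectable over this spread. Counting error and other spread between replicates were not separated.

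MT1M, the scarcest member, had reads mainly in Klf4: 20 and 17 there, against 13, 3 and 0 in GFP, 2 and 1 in Oct4, 1 and 1 in Sox2, and 5 and 8 in OSK. Both Klf4 libraries were above all others, and GFP replicate 1, the library with reads on the most features, was the next. Against GFP the log2 change in Klf4 was 2.54 (SE 0.93, limma adjusted p = 0.0474), and it was 3.47 (adjusted p = 0.00178) without GFP replicate 1. As MT1M was tested because it was high in Klf4, this supports no count of called members, and with no filter the adjusted p was 0.152. The call was kept in 3 of 12 alternatives, and edgeR on the reads gave 1.99 (adjusted p = 0.102). Leaving out Klf4 replicate 1 (adjusted p = 0.211), Klf4 replicate 2 (0.155), GFP replicate 2 (0.0801) or GFP replicate 3 (0.161) ended it.

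The ratio of MT1M reads, scaled to library size, was 4.02 between Klf4 and GFP (exact 95% interval 2.18 to 7.74, which covers counting error only) and 14.3 (4.53 to 72.5) without GFP replicate 1. Between Klf4 and Oct4 it was 12.3 (3.89 to 62.4) and between Klf4 and Sox2 21.9 (5.65 to 188). In limma, MT1M was lower than Klf4 in Oct4 (log2 change -3.06, SE 1.02, adjusted p = 0.0247) and in Sox2 (-3.48, SE 1.02, adjusted p = 0.0121). The difference from Oct4 was lost when any of the 4 libraries was left out (adjusted p 0.0608 to 0.121), and that from Sox2 when Sox2 replicate 2 or either Klf4 library was (0.0555 to 0.0776). In OSK, MT1M did not pass against GFP (1.05, adjusted p = 0.414), but did without GFP replicate 1 (1.98, adjusted p = 0.0490).

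Between lines, the members' counts are read against a high background of called genes. OSK against Oct4 gave 1 of 6 members (MT2A, lower) where 40.3% of all genes were called and 21.9% were lower. OSK against Sox2 gave 0 of 6 where 40.5% were called. OSK against Klf4 gave 2 of 6 (MT2A and MT1E, lower) where 21.5% were called and 11.9% were lower. For OSK against Sox2 the unadjusted limma p was 0.0238 for MT1E, the only member under 0.05. Oct4 against Sox2 gave 3 of 6, all higher, where 33.4% of all genes were called and 18.0% were higher. Oct4 against Klf4 gave 2 of 6 (MT1E and MT1M), both lower, where 41.7% were called and 20.0% were lower. Sox2 against Klf4 gave 4 of 6 (MT2A, MT1E, MT1X and MT1M), all lower, where 40.8% were called and 20.7% were lower. Of 60 pairs of member and comparison, 19 were called. These 19 include MT1M in Klf4 against GFP, Oct4 against Klf4 and Sox2 against Klf4. As MT1M passed the filter through its Klf4 libraries, those calls support no count of called members.

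The 2 main members did not keep a fixed ratio. There were 5.93 to 6.91 MT2A reads per MT1E read in GFP, 5.52 and 6.97 in Oct4, and 6.80 and 7.23 in Sox2, against 3.97 and 4.65 in Klf4 and 3.32 and 4.94 in OSK. The 4 libraries with Klf4, alone or in OSK, were thus the 4 lowest of 11. The mean summed level was highest in Klf4 and lowest in OSK, though the single library with the lowest sum was Sox2 replicate 2 (983). This ratio was chosen after the values were seen and is a description without a test.

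**Figure D4:**
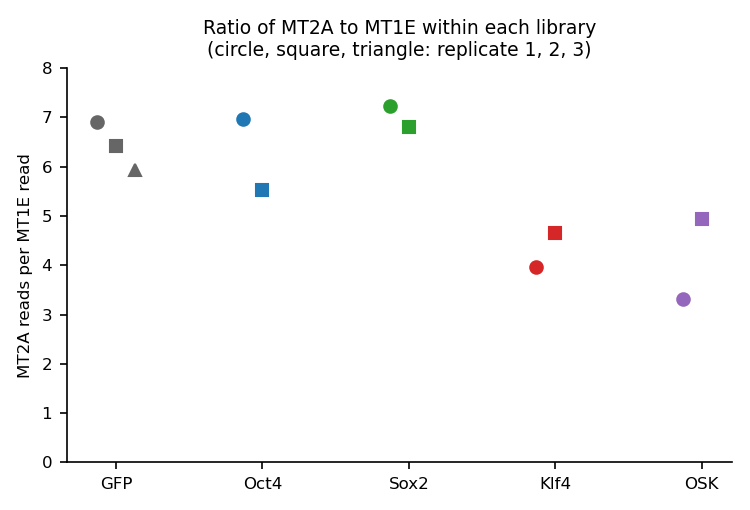
MT2A reads per MT1E read (y axis, from 0) in each library by group (x axis); circle, square and triangle are replicates 1, 2 and 3. The Klf4 and OSK libraries lie between 3.32 and 4.94 and the other 7 libraries between 5.52 and 7.23.

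Over the 11 libraries, on log2(normalised count + 1), MT2A went with MT1E (Pearson r = 0.80) and MT1X with MT1M (r = 0.89), whereas MT1X and MT1F did not go together (r = -0.16). MT1M held 0 to 20 reads per library and was tested because it was high in Klf4, so its correlations rest on few reads. Among 10908 genes with a mean normalised count of at least 100, the patterns most like MT2A were those of RBMS2 (r = 0.95), NINJ1 (0.92) and LZTS2 (0.90). Those most like MT1E were PPP1R13B (0.93), PERP (0.92) and SYT17 (0.92), and for MT1X they were CBX8 (0.91), POLR2L (0.89) and CZIB (0.89). EARS2 (0.93), POLE4 (0.90) and NT5C3A (0.90) were most like MT1F, and ZNF333 (0.91), GPR37L1 (0.90) and KRT16 (0.90) most like MT1M. MT1G had no close match, with PHAX at 0.72, ABCC10 at 0.71 and RBMX2 at 0.68. These are the highest of many correlations over libraries that share 5 groups and are given as likeness only.

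The 11 other metallothionein genes and pseudogenes on the list used here did not pass the filter. MT1H, a close neighbour of MT1G, had reads in all 11 libraries, at most 15 in any. MT3, the brain-enriched metallothionein, had 28 reads in GFP replicate 1, 1 in OSK replicate 1 and 0 in the other 9. These 11 genes together held 73 reads in GFP replicate 1 and 2 to 18 in each other library, so the library that stood apart held more of them than any other. MT1A had 8 reads over the 2 Klf4 libraries, 9 in GFP replicate 1, 5 over the OSK libraries, 1 over the Oct4 libraries and 0 in Sox2. MT4, of stratified epithelia, and the pseudogene MT1CP had 0 reads in each library. Outside this list, the pseudogene MT2P1 shared 2.71% of the 50-base stretches of MT2A, more than any other gene. Its normalised counts were 6.80 to 11.13 in GFP, 9.29 and 6.87 in Oct4, and 4.49 and 2.57 in Sox2. In Klf4 they were 1.16 and 5.71, and in OSK 2.17 and 3.30. The pseudogene MT1XP1 had at most 6.60 in any library.

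Among the regulators, MTF1, the zinc sensor that activates metallothionein genes, changed little. Its mean normalised count was 660 ± 50.2 in GFP (SD, n = 3), and its log2 change was 0.08 in Oct4 (limma adjusted p = 0.489), -0.10 in Sox2 (0.365) and 0.16 in Klf4 (0.164). In OSK it rose by 0.23 (adjusted p = 0.0412), a call lost in 6 of 14 alternatives, among them the fits without OSK replicate 1 (0.27, adjusted p = 0.0751), OSK replicate 2 (0.18, 0.242) and GFP replicate 2 (0.17, 0.153). STAT3, which transmits cytokine signals to metallothionein promoters, rose in Oct4 (1.87, SE 0.06, adjusted p = 6.19e-12), OSK (1.33, SE 0.06, adjusted p = 2.80e-10) and Sox2 (0.46, adjusted p = 2.51e-05), and was not called in Klf4 (0.05). NR3C1, the glucocorticoid receptor, rose in Oct4 (1.11, adjusted p = 3.63e-09), Klf4 (0.81, adjusted p = 1.99e-07) and OSK (0.59, adjusted p = 4.22e-06), and was not called in Sox2 (0.12, adjusted p = 0.198). Of the 7 regulators tested, 2 rose and 2 fell in Oct4, 1 rose and 2 fell in Sox2, 4 rose and 0 fell in Klf4, and 5 rose and 1 fell in OSK. Called in either direction were 57.1% in Oct4, 42.9% in Sox2, 57.1% in Klf4 and 85.7% in OSK. The shares of all genes were 37.3%, 41.6%, 33.5% and 39.7%, and the directions were not tested.

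SLC30A1, the zinc exporter of the plasma membrane and itself a target of MTF1, went the other way from MT2A in OSK. It rose from 1505 ± 87.0 in GFP (SD, n = 3) to 2780 ± 30.9 in OSK (SD, n = 2), a log2 change of 0.89 (SE 0.07, limma adjusted p = 7.06e-08) that was kept in all 14 alternatives. It fell in Oct4 (1208 ± 31.7, log2 change -0.32, adjusted p = 0.00252) and was not called in Sox2 (0.13, adjusted p = 0.158) or Klf4 (0.15, adjusted p = 0.133). Of 7 zinc exporters tested, 4 rose and 0 fell in OSK, 3 rose and 1 fell in Oct4, 2 rose and 0 fell in Sox2, and 0 changed in Klf4. Called in either direction were 57.1% in OSK, 57.1% in Oct4, 28.6% in Sox2 and 0% in Klf4. The shares of all genes were 39.7%, 37.3%, 41.6% and 33.5%, and the directions were not tested.

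Zinc importers rose and fell in every line. Of 12 tested, 3 rose and 2 fell in Oct4, 5 and 2 in Sox2, 4 and 2 in Klf4, and 5 and 2 in OSK. Called in either direction were 41.7% in Oct4, 58.3% in Sox2, 50% in Klf4 and 58.3% in OSK. The shares of all genes were 37.3%, 41.6%, 33.5% and 39.7%. SLC39A8, an importer of zinc and manganese, rose from 549 ± 23.3 in GFP to 2684 ± 270 in OSK (log2 change 2.28, SE 0.09, limma adjusted p = 2.82e-11) and to 1139 ± 144 in Oct4 (1.05, adjusted p = 1.59e-07). It also rose in Klf4 (0.57, adjusted p = 1.14e-04) and fell in Sox2 (-0.62, adjusted p = 3.68e-05). SLC39A4, the intestinal zinc importer, rose in Klf4 (1.09, adjusted p = 3.02e-05) and was not called in the other lines (-0.32 to -0.03). SLC39A1, an importer of the cell surface, fell by 1.31 in Oct4 (adjusted p = 0.00154) and by 1.42 in Sox2 (adjusted p = 6.60e-04). SLC39A13, a zinc transporter of internal membranes, fell in Klf4 (-0.62, adjusted p = 1.57e-05) and OSK (-0.88, adjusted p = 2.61e-07) and rose in Sox2 (0.32, adjusted p = 0.00425). SLC39A5 fell in Oct4 (-2.62, adjusted p = 0.0364), from 4.86 to 18.87 in GFP, where replicate 1 was highest, to 0 and 2.32. That call was lost in 6 of 13 alternatives, among them the fits without GFP replicate 1 (-2.21, adjusted p = 0.0673), GFP replicate 2 (-2.57, 0.0806) or Oct4 replicate 2 (-1.76, 0.284).

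Copper and iron genes showed the same mixture. Of 19 tested, 8 rose and 6 fell in Oct4, 4 and 7 in Sox2, 3 and 2 in Klf4, and 5 and 7 in OSK. Called in either direction were 73.7% in Oct4, 57.9% in Sox2, 26.3% in Klf4 and 63.2% in OSK. The shares of all genes were 37.3%, 41.6%, 33.5% and 39.7%. FTH1, the ferritin heavy chain that stores iron, fell from 17050 ± 1383 in GFP to 8642 ± 481 in Sox2 (-0.98, SE 0.08, limma adjusted p = 8.66e-08) and 8700 ± 69.6 in OSK (-0.97, SE 0.08, adjusted p = 1.13e-07). It also fell in Oct4 (-0.91, adjusted p = 2.56e-07) and was not called in Klf4 (-0.20, adjusted p = 0.0748). FTL, the ferritin light chain, fell in all 4 lines, by 0.36 in Oct4, 0.70 in Sox2, 0.56 in Klf4 and 0.34 in OSK (adjusted p from 4.13e-07 to 6.60e-04). SLC40A1, the iron exporter ferroportin, fell in Oct4 (-1.27, adjusted p = 5.62e-04) and OSK (-0.996, adjusted p = 0.00349), and was not called in Sox2 (-0.56, adjusted p = 0.0751) or Klf4 (-0.58, adjusted p = 0.0771). STEAP2, a metalloreductase, rose in Sox2 (1.46, adjusted p = 5.41e-04), OSK (2.01, adjusted p = 2.86e-05) and Klf4 (0.98, adjusted p = 0.0131), the last lost without Klf4 replicate 1 (0.78, adjusted p = 0.143).

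Further copper genes also moved. The copper pump ATP7A rose in Sox2 (1.02, limma adjusted p = 3.04e-07) and Oct4 (0.51, adjusted p = 4.78e-04), and was not called in Klf4 (-0.04) or OSK (0.23). COX17, the copper chaperone of cytochrome oxidase, rose in all 4 lines, by 0.65 in Oct4, 1.03 in Sox2, 0.48 in Klf4 and 0.64 in OSK (adjusted p from 7.47e-07 to 0.00209). The ferrireductase STEAP3 fell in Sox2 (-1.07, adjusted p = 7.04e-06) and was not called in the other lines (-0.07 to 0.02). SLC31A2, a copper transporter of internal membranes, rose in Klf4 (1.77, adjusted p = 9.55e-04) and OSK (1.08, adjusted p = 0.0226). The copper pump ATP7B fell in all 4 lines, by 0.48 in Oct4, 0.33 in Sox2, 0.54 in Klf4 and 0.66 in OSK (adjusted p from 3.78e-04 to 0.0402). Over all 45 metal handling genes tested, 60.0% were called in Oct4, 51.1% in Sox2, 33.3% in Klf4 and 64.4% in OSK, beside 37.3%, 41.6%, 33.5% and 39.7% of all genes. Without GFP replicate 1 the number called was 22 in Oct4 (27 with it), 23 in Sox2 (23), 18 in Klf4 (15) and 29 in OSK (29). These lists were not tested as sets, and nothing particular to them is read from the counts.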

How the data were processed

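RNA was sequenced after oligo(dT) enrichment with the NEBNext Ultra II kit, per the labels' protocols. The submitters' processing notes name STAR 2.7.1a, featureCounts 1.6.2 and the builds GRCh38/hg38 and GRCm38/mm10. Annotation, strand and the handling of reads that fit several genes are not given in the sources used here. The deposited signal values are read counts that the authors divided by 1 factor per library. They were traced back to whole reads: up to 200, 100% of values lay within 0.0061 of a multiple of the library's step. For the 2 GFP libraries whose step lies near 1, this rests on 23442 and 13583 values that are not whole numbers.

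limma 3.58.1 (R 4.3.3; trend, no block) was fitted to log2(value + 1) over all 11 libraries with 1 mean per group, for the 18828 genes that reached 10 in 2 or more libraries. P-values were Benjamini-Hochberg adjusted over all genes tested. The scripts were tested on simulated data. Alternatives were edgeR 4.0.16 and DESeq2 1.42.0 on the recovered reads, TMM scaling, no filter, a minimum of 50, pseudocounts of 0.5 and 5, only the compared groups, a replicate block, and leaving out each library. The fits of the named metal handling genes under these settings were added after seeing the data.

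The members and the gene lists were chosen with earlier results of these data known. Named genes were all members, the 3 genes most correlated with each, all metallothioneins, MTF1, SLC30A1, and per comparison with GFP the 3 listed genes with the largest rise and fall. Sequences came from GENCODE 29 and RefSeq.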

Additional observations from a re-analysis of the deposited data

How the results depend on the processing

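Beside the values given above, these counts of called members moved by more than 1.5 times. When the fit held no groups but those compared, Klf4 against GFP gave 1 of 6, OSK against Oct4 2 and Oct4 against Sox2 1. With a minimum of 50, MT1F, MT1G and MT1M were not tested. Of the 3 members left, OSK against Oct4 gave 2, OSK against Sox2 1 and Oct4 against Klf4 1. With no filter Oct4 against Klf4 gave 0 of 6. Leaving out a library gave 0 to 3 for Sox2 against GFP, 0 to 3 for Klf4 against GFP, 1 to 2 for OSK against GFP and for OSK against Oct4, 0 to 1 for OSK against Sox2 and for Oct4 against Klf4, 1 to 3 for Oct4 against Sox2 and 2 to 3 for Sox2 against Klf4. The causes of these shifts were not tested. The shares of all genes called under these settings are not given, so the counts are no result about the family. A group left with 1 library was assumed to vary like the other groups.

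The replicate block gave 1 of 6 for Klf4 against GFP, where MT1X (0.47, limma adjusted p = 0.0756) and MT1M (1.57, adjusted p = 0.190) missed the threshold. The labels do not say that replicate numbers mark shared cultures, so the numbers were not taken to pair the libraries. The correlation of replicate differences was 0.41 between GFP and OSK and -0.07 to 0.04 between every other pair of groups. Replicate 1 of GFP and replicate 1 of OSK were the libraries with reads on the most features.

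Directions reversed only where no test had passed. Against GFP in Oct4, MT2A was -0.12 without Oct4 replicate 1, MT1M 0.41 without GFP replicate 1, and with the replicate block MT1X was -0.0434 and MT1G -0.13. Leaving out 1 library gave ranges of -0.12 to 0.39 for MT2A, -0.0434 to 0.36 for MT1X, -0.65 to 1.04 for MT1G and -1.49 to 0.41 for MT1M. In Sox2, MT1X was 0.0040 with TMM scaling and ran from -0.27 to 0.13 when 1 library was left out. There MT1G was 0.12 with edgeR, 0.11 with DESeq2, 0.0138 with a pseudocount of 5, and -0.82 to 0.78 when 1 library was left out. MT1G in Klf4 was 0.11 without GFP replicate 2 and 0.38 without Klf4 replicate 2. MT1G and MT1M had at most 24.38 normalised counts in any library. Replicates of MT1G held 21 and 6 reads in Oct4 and 18 and 7 in Sox2, and how much of this spread is counting error was not tested.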
